A study of Mus musculus with 13 samples.

Results

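The response of Regnase-1-deficient mouse B cells to their antigen receptor was followed by RNA-seq in 6 of the 13 libraries of the study. These were 3 libraries of splenic B cells treated with anti-IgM F(ab')2 for 4 h, an antibody fragment that crosslinks the B cell receptor (BCR) on the cell surface, and 3 libraries of untreated cells that carry the same numbers. Each stimulated library was compared with the untreated library of its own number, which is called its pair here. Reads had been counted per gene symbol. Of the 23336 symbols with a value in every library 18872 had a count in any of them, and 13574 passed a low-count filter and were tested. The deficient cells had the genotype Regnase-1f/f hCD20TamCre: floxed alleles of Zc3h12a, the gene for Regnase-1, with a tamoxifen-controlled Cre recombinase driven by the human CD20 promoter, which is active in B cells. The controls, with 4 untreated and 3 stimulated libraries, were Regnase-1+/+ hCD20TamCre and carried the same Cre, so the Cre was shared by all groups. All cells were obtained from spleen by removing CD43-bearing cells with beads. The labels give no age of the mice and no time in culture for the untreated cells, so stimulation cannot be told apart from 4 h in culture. The labels also do not say that each number is a separate mouse. Where it is not, the p-values below measure only the spread between these samples.

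As background, the BCR couples surface immunoglobulin to the signalling chains Cd79a and Cd79b, the kinase Syk and a cascade that raises calcium and activates NFAT, NF-kB and ERK. A naive B cell answers this signal by leaving quiescence: it induces early transcription factors and Myc, builds ribosomes, raises its metabolism, and changes its surface receptors and its homing. Regnase-1 is an endoribonuclease that cuts stem-loop-bearing mRNAs of immune genes, among them Nfkbiz, Rel, Il6 and its own transcript, and Toll-like receptor and T cell receptor signals are known to lead to its breakdown.

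Zc3h12a (chromosome 4, 125118423 to 125127840, minus strand, mm10) showed no detectable change after stimulation in deficient cells. Its level, in CPM (counts relative to the library total, with TMM scaling factors), was 89.2, 99.6 and 111 CPM before stimulation in deficient pairs 1 to 3, against 92.6, 103 and 113 CPM after it. All 6 values lay below those of the controls, which were 121 to 131 CPM untreated and 147 to 157 CPM stimulated. The log2 fold change was 0.04 ± 0.05 (SE; edgeR's quasi-likelihood test with pairs as a block, Benjamini-Hochberg adjusted p = 0.486) in deficient cells. In control cells it was 0.29 ± 0.05 (adjusted p = 2.37e-05), but the difference between the responses, -0.25 ± 0.07, did not pass (adjusted p = 0.160). Reads from exons that Cre leaves in place still count towards the gene, so the level checks the genotype label only in part.

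Total counts ran from 21407724 to 33244755 over the 6 libraries, where 3 counts equal between 0.0831 and 0.136 CPM, a floor that covers counting error only. Across all 13 libraries the first principal component held 59.4% of the variance and separated stimulated from untreated libraries, and the second held 11.7%, with both libraries of deficient pair 1 at its low end (-33.4 and -42.8, against 12.2 to 30.7 for the other deficient libraries). Of 10 B cell markers 8 fell and 2 rose after stimulation, with a median log2 change of -1.32. They summed to 6342 to 7579 CPM in untreated and 2946 to 3197 CPM in stimulated deficient libraries, so the labelled cell type had its markers in every library. Markers of other cells were present at lower levels: the 15 myeloid markers summed to 574, 242 and 169.7 CPM before stimulation in deficient pairs 1 to 3, against 213, 106 and 95.1 CPM after it, with 10 of 15 lower and 0 higher. The 11 neutrophil markers summed to 450.2, 75.8 and 61.4 CPM untreated and 310.3, 43.6 and 45.2 CPM stimulated, and the 11 T cell markers with a count to 59.9 CPM or less in every deficient library. Among the marker genes with an entry the 2 at 0 in all 6 libraries were the alpha-globin genes Hba-a1 and Hba-a2. Other erythroid markers were present: the 9 with an entry, these 2 among them, summed to 1407, 207 and 808 CPM untreated and 1276, 143 and 507 CPM stimulated. In libraries of bulk RNA fewer cells of a type and less RNA per cell cannot be told apart.

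Most tested genes differed in level between stimulated and untreated libraries, many of them by little. At an adjusted p under 0.05, 8900 of 13574 genes passed the test (65.6%), of which 4181 rose (30.8% of tested genes) and 4719 fell (34.8%). The median log2 change over all tested genes was -0.11. Against a 1.5-fold minimum 3901 genes passed, 1881 higher and 2020 lower. More than 2-fold changes were seen in 1373 genes that rose (10.1%) and 1736 that fell (12.8%), and more than 8-fold changes in 64 and 71 genes. The sign was the same in all 3 pairs for 8810 of the 8900 genes, or 99.0%. Over all tested genes 62.0% had no overlap between the 3 untreated and 3 stimulated libraries, and 30.1% had none with the stimulated libraries higher. Of the genes over 2-fold, 1329 of those that rose and 1576 of those that fell had no overlap. Scaling by library totals alone, without TMM factors, moved the median of all genes by -0.15 and the split to 3363 higher and 5908 lower, so directions of small changes depend on the scaling.

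The 3 deficient pairs gave alike but not equal responses. Across genes, which are not independent replicates, the log2 ratios of pairs correlated with r of 0.820 (pairs 1 and 2), 0.762 (pairs 1 and 3) and 0.798 (pairs 2 and 3). The SD of the log2 ratios over genes was 0.955, 0.945 and 1.09 in pairs 1 to 3. Among the 3109 genes changed over 2-fold, the largest rise of the 3 pairs was in pair 1 for 656 of 1373 genes, and the largest fall was in pair 3 for 1096 of 1736. Pair 1 was thus most often the highest riser and pair 3 most often the deepest faller.

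**Figure D1:**
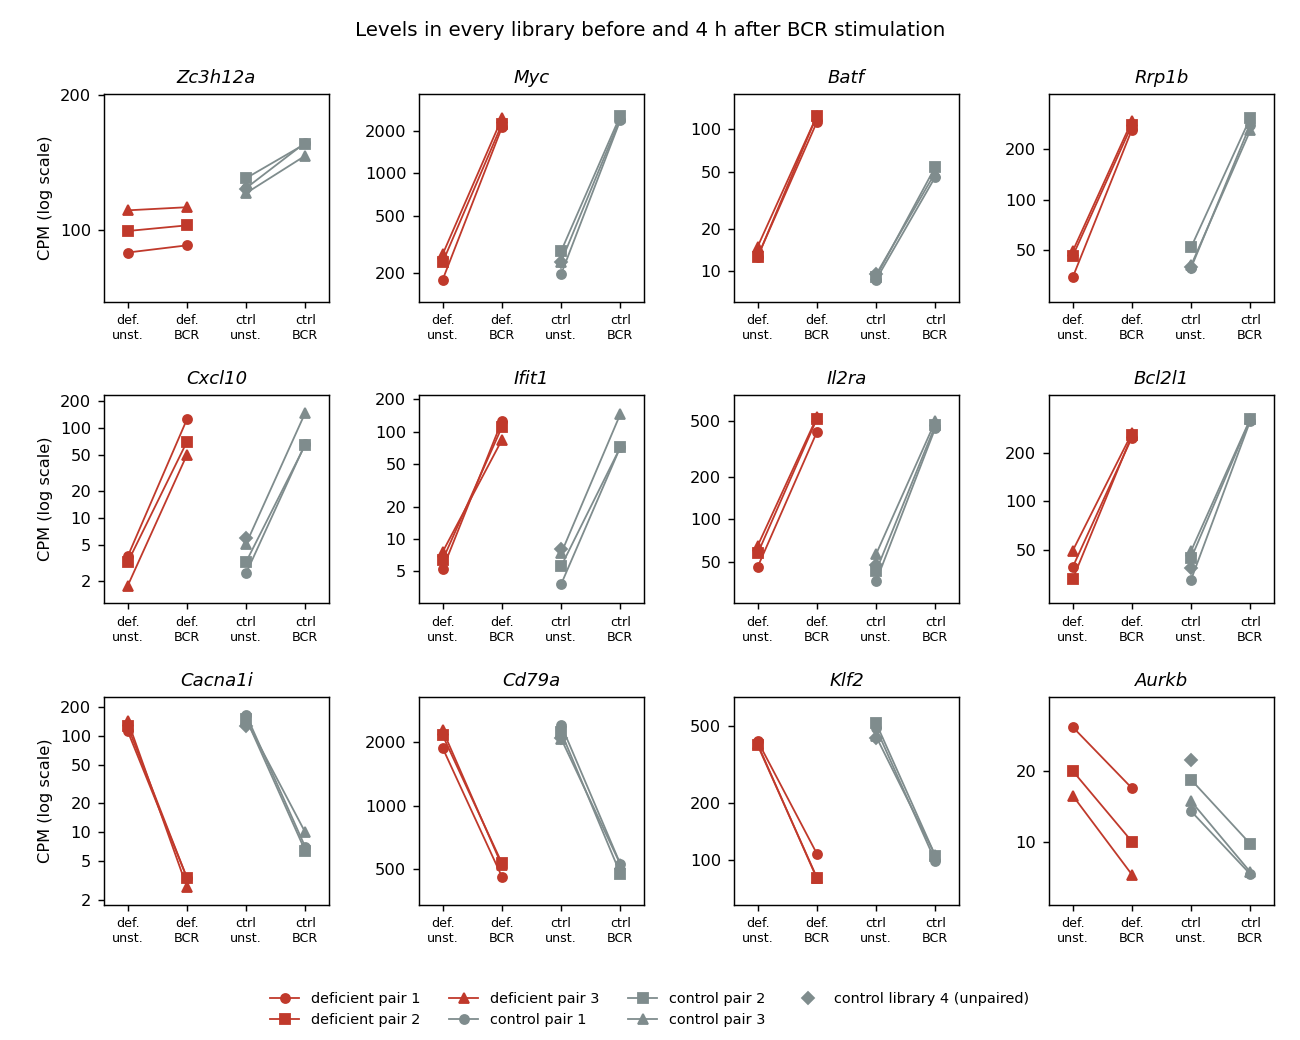
Levels of 12 genes in all 13 libraries, in TMM-scaled CPM on log axes, with lines joining the untreated (unst.) and stimulated (BCR) library of a pair; red is deficient (def.), grey is control (ctrl), and the control library without a partner is a diamond. Zc3h12a is flat in the deficient pairs (89.2 to 113 CPM), Myc and Cxcl10 rise in all 6 pairs, Cacna1i falls in all 6, and for Aurkb the deficient untreated and stimulated libraries overlap although each pair falls.

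The 12 largest rises were in chemokine genes (Cxcl10, Ccl4, Ccl3), interferon-stimulated genes (Mx1, Ifit1, Ifit3, Ifit2, Mx2, Usp18), Lrrc32, Irg1 and Gfi1, by 11.5-fold to 27.6-fold. Lrrc32 encodes GARP, the surface anchor of latent TGF-beta, Irg1 the enzyme that makes itaconate, and Gfi1 a transcriptional repressor. Lrrc32 went from 6.23, 11.6 and 12.4 CPM to 104, 137 and 155 CPM, and Gfi1 from 6.09, 7.11 and 9.15 CPM to 71.4, 92.5 and 100 CPM. Irg1 went from 3.49, 2.47 and 1.13 CPM to 58.1, 20.6 and 16.1 CPM, so that pair 1, which had the highest myeloid marker level, stood highest in both states. The part of myeloid cells in the Irg1 level was not tested.

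The 12 largest falls were in Cacna1i, B3gnt8, Spns2, Rasgrp2, Zfp831, Dmpk, Hepacam2, Cd55, Fam101b, Ppl, Icosl and Itgb7. Cacna1i (chromosome 15, 80287238 to 80398279), a voltage-gated calcium channel subunit gene, went from 111, 125 and 143 CPM to 3.38, 3.36 and 2.71 CPM, a 39.8-fold fall with a log2 change of -5.31 ± 0.17 (adjusted p = 3.35e-08). Spns2, which encodes a transporter that exports sphingosine 1-phosphate, fell from 26.3, 37.8 and 45.2 CPM to 1.89, 2.39 and 1.79 CPM. Rasgrp2, a calcium-regulated activator of the GTPase Rap1, fell from 259.6, 252 and 259 CPM to 25.6, 20.9 and 18.8 CPM. Zfp831 fell from 85.4 to 131 CPM to 7.48 to 11.2 CPM, and B3gnt8, a glycosyltransferase gene, from 27.7 to 35.0 CPM to 1.01 to 1.89 CPM. None of these genes had overlapping groups, against 62.0% of all tested genes without overlap. They were chosen for large falls with the same sign in all 3 pairs, so this separation is largely set by the choice. B3gnt8 overlaps exons of Bckdha on the opposite strand by 1171 bases and Spns2 those of Mybbp1a by 131 bases. Whether counting used strand is not stated, so reads of such partners cannot be separated.

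Interferon-stimulated genes, the antiviral programme that type I interferon switches on, had the highest median of the 34 gene lists examined. Of 33 tested members 31 rose, 29 of them by more than 2-fold, 1 fell and 1 did not pass, with a median log2 change of 2.21. The counts of this and the later lists stand beside 30.8% of all tested genes rising and 34.8% falling. Mx1, which encodes an antiviral GTPase, went from 9.81, 11.9 and 10.8 CPM to 239, 206 and 143 CPM (log2 4.17 ± 0.15, adjusted p = 1.76e-07). Ifit1, Ifit2 and Ifit3 encode RNA-binding antiviral proteins. Ifit1 went from 5.26, 6.41 and 7.61 CPM to 125, 110.2 and 83.8 CPM (4.07 ± 0.23, adjusted p = 1.3e-05), with no overlap between states. Usp18, which encodes a protease that removes the ubiquitin-like protein ISG15, rose 11.5-fold. The chemokine gene Cxcl10 (chromosome 5, 92346638 to 92348889, minus strand), which is also interferon-inducible, went from 3.74, 3.22 and 1.77 CPM to 125, 70.3 and 50.3 CPM (4.79 ± 0.12, adjusted p = 1.91e-15). Its gene overlaps Art3 exons on the opposite strand by 133 bases. The 2 exceptions in the list, looked up after their values were seen, encode guanylate-binding GTPases: Gbp3 fell (-0.98 ± 0.23, adjusted p = 0.0155) and Gbp2 was at -0.26 (adjusted p = 0.443). The Gbp3 call was not stable: no list member passed as lower without deficient pair 2, without deficient pair 3 or against a 1.5-fold minimum.

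The size of the interferon response varied between pairs. Within pairs the list's median log2 ratio was 2.53, 2.23 and 1.80 in deficient pairs 1 to 3, and pair 1 was the highest for 28 of the 31 members that rose. Summed over members, pairs 1 to 3 held 1220, 1308 and 1365 CPM before stimulation and 5463, 4490 and 3943 CPM after it. Myeloid and neutrophil marker sums were also highest in pair 1, in both states. Their part in the interferon response was not tested. In deficient pairs 1 to 3 myeloid markers summed to 574, 242 and 169.7 CPM untreated and 213, 106 and 95.1 CPM stimulated. In control pairs 1 to 3 the median was 2.26, 1.79 and 2.17, so the genotypes overlapped. Myeloid markers in these control pairs summed to 199, 228 and 536 CPM untreated and 124, 111 and 227 CPM stimulated. The difference between the responses passed for 0 of the 33 genes (edgeR's quasi-likelihood test), against 0.501% of all tested genes. Rsad2, an antiviral enzyme gene looked up after its values were seen, shows how uneven single members were: it went from 52.1, 17.8 and 71.9 CPM to 333, 189.8 and 235 CPM (2.57 ± 0.37, adjusted p = 0.00365).

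The promoters of 4 of these genes are shown because they carry the letters of the interferon-stimulated response element (ISRE), a site known from promoters of interferon-inducible genes. The core searched was GAAANNGAA on either strand, so that a match on the other strand reads TTC, any 2 bases and TTTC, in the 250 bases before each RefSeq gene start (GRCm38.p6). Each line runs 5′ to 3′ on the gene's own strand and ends at the base before the start, with matches in capitals. In Ifit1 the first 15 capitals are 2 overlapping matches.
Cxcl10: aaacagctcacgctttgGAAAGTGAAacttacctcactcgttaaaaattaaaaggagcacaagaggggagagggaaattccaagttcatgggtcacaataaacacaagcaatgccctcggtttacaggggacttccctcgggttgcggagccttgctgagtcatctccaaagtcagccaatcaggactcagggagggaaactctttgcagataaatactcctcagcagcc
Ifit1: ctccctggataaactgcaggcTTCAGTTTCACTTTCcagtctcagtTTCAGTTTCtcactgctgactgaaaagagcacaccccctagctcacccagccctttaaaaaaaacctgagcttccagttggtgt
Ifit3: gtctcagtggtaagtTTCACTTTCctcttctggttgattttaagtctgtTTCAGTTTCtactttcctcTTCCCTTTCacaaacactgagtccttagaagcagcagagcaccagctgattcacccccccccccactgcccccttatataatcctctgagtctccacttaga
Rsad2: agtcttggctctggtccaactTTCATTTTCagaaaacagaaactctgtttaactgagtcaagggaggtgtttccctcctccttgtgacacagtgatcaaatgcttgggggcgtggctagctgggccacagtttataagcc
They lie at chr5:92348890-92349119 (minus strand), chr19:34640759-34640888 (plus), chr19:34583359-34583528 (plus) and chr12:26456453-26456592 (minus). The nearest match starts 213, 84, 102 and 119 bases before the start of Cxcl10, Ifit1, Ifit3 and Rsad2. Of the 29 interferon genes that rose over 2-fold 19 had a promoter in the table, and 9 of those (47.4%) held the core, against 8.18% of all 27025 promoters. Of all genes that rose over 2-fold 10.5% of those with a promoter held it, and of those that fell over 2-fold 7.16%. The table held no entry for Mx1, Mx2 and Usp18. A match is a description of letters, not evidence of binding.

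**Figure D2:**
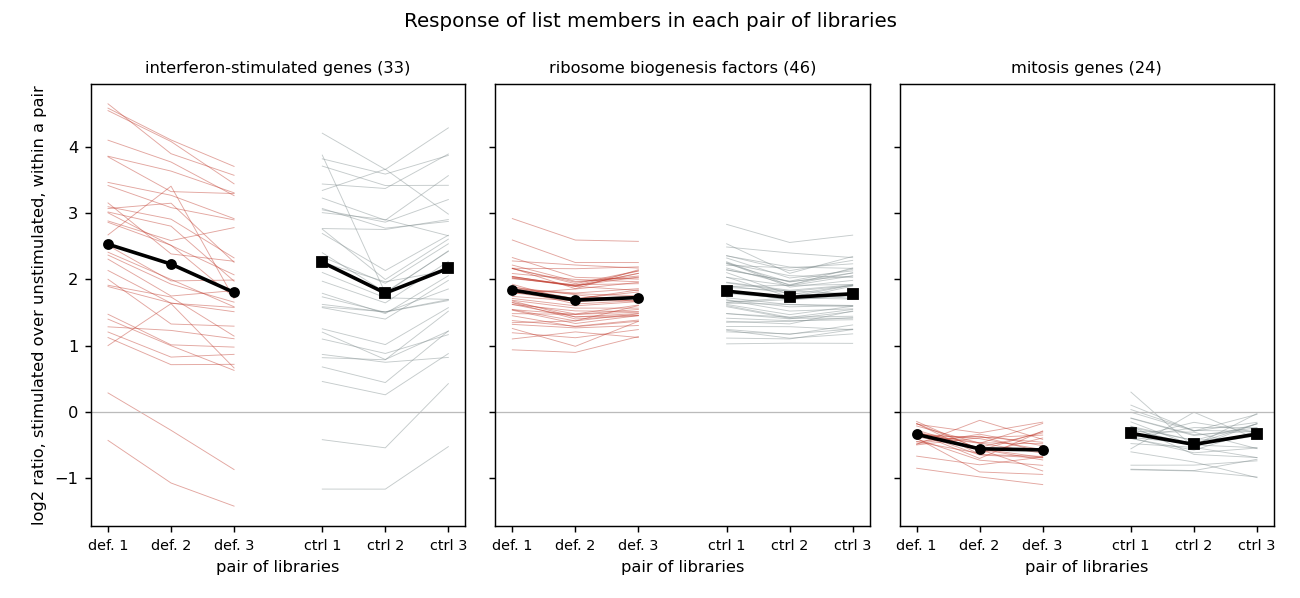
Log2 ratios of stimulated over untreated CPM within each pair of libraries, for the members of 3 gene lists (thin lines, red for deficient and grey for control pairs) and their medians (black); pairs have no order, and lines only join the values of a gene. Interferon-stimulated genes have medians of 2.53, 2.23 and 1.80 in the deficient pairs, ribosome biogenesis factors 1.84, 1.69 and 1.73, and mitosis genes -0.35, -0.56 and -0.58.

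Most genes of the receptor itself and of the first signalling steps fell. Of 34 tested genes of the BCR complex and proximal signalling 22 fell and 9 rose, with a median log2 change of -0.25 against -0.11 over all genes. Cd79a, a signalling chain of the receptor, went from 1869.5, 2145 and 2269 CPM to 462, 535 and 522 CPM, a 4.13-fold fall (-2.05 ± 0.05, adjusted p = 3.82e-16). Its partner Cd79b fell by 2.10 and the kinase gene Syk by 2.11 on the log2 scale, each with stimulated libraries far below untreated ones. Cr2, which encodes the complement receptor CD21 that lowers the threshold of BCR signalling, moved the other way, from 83.6, 109.5 and 106 CPM to 452, 498 and 529 CPM (2.31 ± 0.05, adjusted p = 2.28e-16).

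Genes that damp the BCR signal were lower on balance as well, with 20 of 34 falling, 11 of them over 2-fold, and 9 rising (median -0.48). Dgka, a diacylglycerol kinase gene, fell from 282, 325 and 353 CPM to 36.1, 42 and 32.4 CPM, or 8.67-fold. Rasa3, which encodes a GTPase-activating protein for Ras and Rap1, fell from 701, 882 and 988 CPM to 97.8, 117 and 101 CPM. The inhibitory receptor genes Siglecg and Pecam1 fell by 2.39 and 2.26 on the log2 scale. Calcium and NFAT genes split by 13 falling and 8 rising (median -0.30). Itpr3, an endoplasmic calcium release channel gene, fell by 2.40, and the store sensor gene Stim1 and the channel subunit gene Orai2 fell by 1.69 and 1.42, while the channel subunit gene Orai1, taken up after its value was seen, rose by 1.33.

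Early transcription factor genes mostly rose at 4 h. Of 30 immediate early genes 20 rose, 13 over 2-fold, and 6 fell (median 0.37). Nr4a3, an orphan nuclear receptor gene, went from 43.1, 64.7 and 67.3 CPM to 352, 485 and 473 CPM (2.92 ± 0.10, adjusted p = 1.35e-09). Egr2, a zinc finger factor gene, went from 23.4, 39.5 and 41.5 CPM to 164, 230.4 and 239.5 CPM (2.63 ± 0.10). In both genes pair 1 was lowest in both states. Maff and Atf3 rose by 2.37 and 2.07, whereas the fitted changes of Fos and Junb, named here after their values were seen, were only 0.36 and 0.12. Library totals alone moved the median of all genes by -0.15, so the direction for Junb may depend on the scaling. In that setting 17 of the 30 genes rose and 8 fell.

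NF-kB subunits and feedback genes rose in 15 of 26 cases and fell in 8 (median 0.34). Tnfaip3, which encodes the deubiquitinase A20 that ends NF-kB signalling, went from 115, 139.6 and 142 CPM to 535, 664 and 628 CPM (2.20 ± 0.06, adjusted p = 4.43e-15). Nfkbid and Nfkbiz encode atypical nuclear IkB proteins, and Nfkbie encodes an inhibitor that holds NF-kB in the cytoplasm. Nfkbiz, a known Regnase-1 target, went from 232, 251 and 265 CPM to 887, 1032 and 954 CPM, a rise of 1.94 ± 0.05 (adjusted p = 4.73e-16). Nfkbid and Nfkbie rose by 1.97 and 1.75.

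Among factors of B cell identity and fate 16 of 44 rose and 22 fell, against 30.8% and 34.8% of all tested genes. Batf, an AP-1 family gene needed for class switching, went from 12.7, 12.6 and 14.9 CPM to 113, 125 and 125 CPM (3.18 ± 0.07, adjusted p = 2.28e-16). Irf4, which drives activated B cells towards plasma cells, went from 365, 466 and 534 CPM to 1959.9, 2467 and 2657 CPM (2.38 ± 0.05). Id3, an inhibitor of E proteins, fell from 75.6, 76.0 and 76.3 CPM to 13.2, 9.84 and 10.4 CPM. Ets1, a factor that restrains plasma cell differentiation, fell by 2.14.

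**Figure D3:**
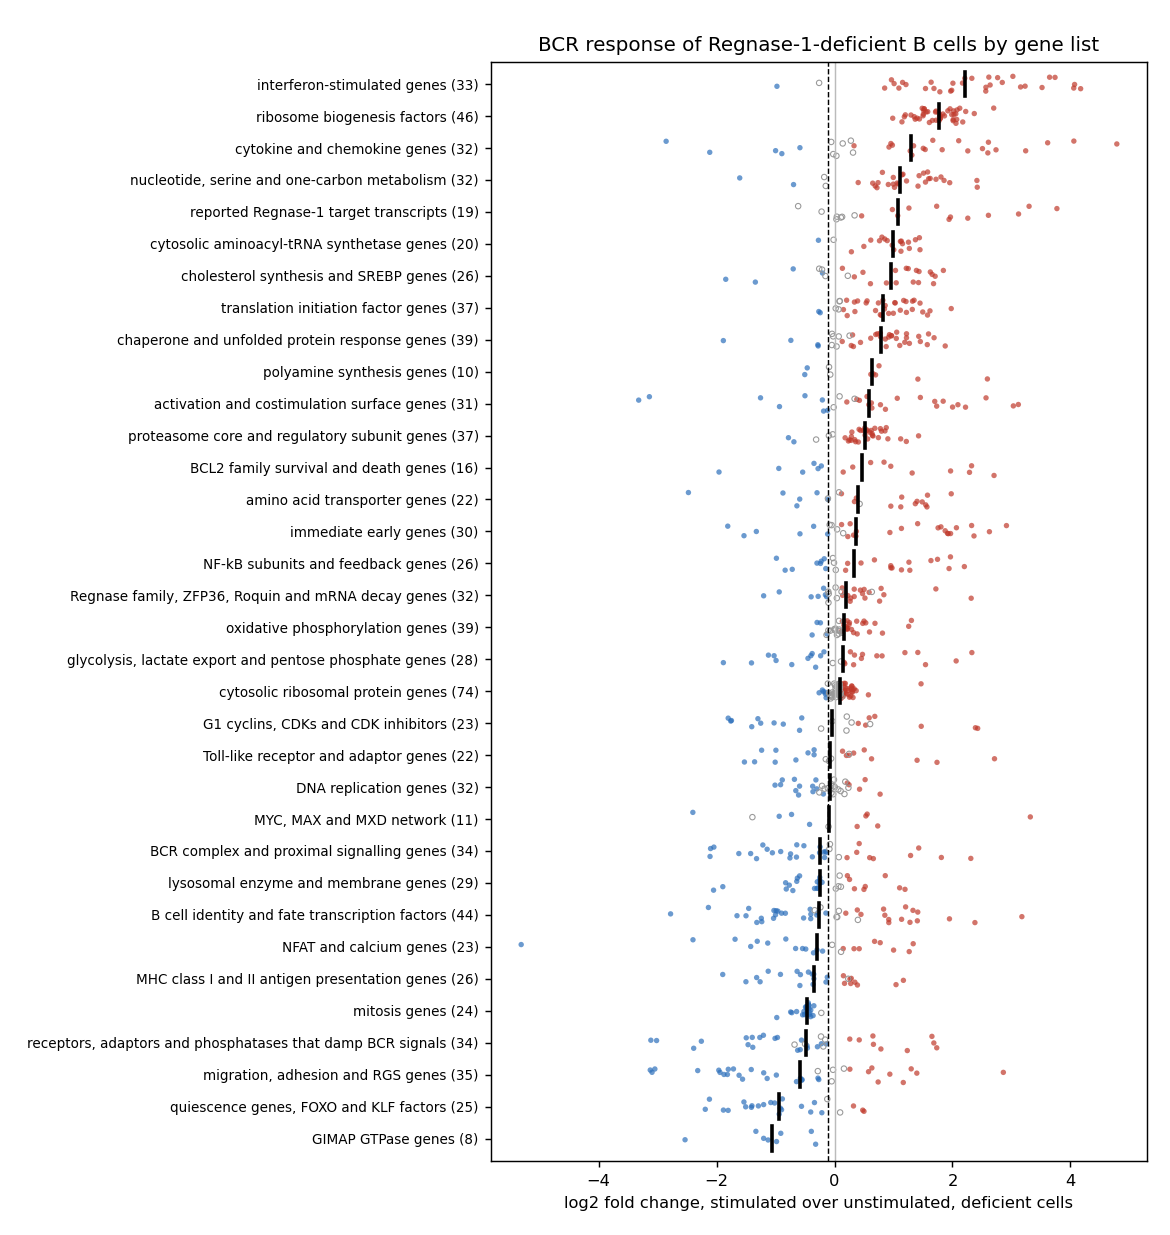
Log2 fold changes in deficient cells, from the paired fit, of the members of 34 gene lists (number of tested members in brackets), ordered by their median (black bar); red and blue points rose and fell at an adjusted p under 0.05, open grey points did not pass, and the dashed line is the median of all tested genes at -0.11. Interferon-stimulated genes (2.21) and ribosome biogenesis factors (1.77) lie at the top and GIMAP GTPase genes (-1.06) at the bottom.

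Myc (chromosome 15, 61985391 to 61990374), the transcription factor gene that drives ribosome production and metabolism in activated lymphocytes, went from 179, 237 and 269.9 CPM to 2107, 2222 and 2443 CPM, a 9.99-fold rise (3.32 ± 0.10, adjusted p = 1.25e-08). In the MYC, MAX and MXD network 5 of 11 tested genes rose and 4 fell, against 30.8% and 34.8% of all tested genes. Mxd4 and Mxi1, which encode proteins that compete with MYC for MAX, fell by 2.40 and 0.94.

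All 46 ribosome biogenesis factor genes rose, 45 of them over 2-fold, with a median log2 change of 1.77, and none of the 46 had overlapping groups, against 30.1% of all tested genes without overlap and higher after stimulation. The largest change was in Rrp1b, a nucleolar ribosomal RNA processing gene, which went from 34.6, 46.3 and 49.5 CPM to 262, 280.1 and 295 CPM (2.70 ± 0.07, adjusted p = 1.22e-14). Polr1b, a subunit of RNA polymerase I, rose by 2.37, and the nucleolar protein genes Gnl3 and Nolc1 rose by 2.23 and 2.17. The member just under 2-fold was Polr1c, a subunit gene shared by polymerases I and III and named after its value was seen, at 0.99. The E-box CACGTG, a palindrome bound by MYC and MAX, was found in the 250-base promoters of 1 of 40 of these genes with an entry (2.50%), against 6.86% of all promoters and 14.3% of those of genes that rose over 2-fold. These letters were searched in no other window.

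Of 37 translation initiation factor genes 31 rose (median 0.82), led by Eif2b3 (1.98) and by Eif4e (1.62), which encodes the cap-binding protein. Of 20 aminoacyl-tRNA synthetase genes 18 rose (median 0.99), such as Eprs, from 374, 418 and 401 CPM to 949.8, 1135 and 1187 CPM. Genes for the ribosomal proteins themselves hardly moved: 35 of 74 rose and 6 fell with a median of 0.10, which turned to -0.05 with library totals alone, without pair 3 the count that rose was 22, and with no replicate block it was 18. Many of these genes have near-identical copies in the genome that can take or lose their reads, so their values are uncertain. The largest was Rpl34 at 1.47, from 2.63 to 3.66 CPM to 7.95 to 9.19 CPM.

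In nucleotide, serine and one-carbon metabolism 28 of 32 rose and 2 fell (median 1.11). Shmt1, which passes one-carbon units to folate, went from 12.8, 17.9 and 14.6 CPM to 71.1, 81.9 and 90.0 CPM (2.42 ± 0.09), and Ctps, which makes CTP, from 32.6, 38 and 41.3 CPM to 190.1, 203 and 200.4 CPM (2.41 ± 0.06). Of 10 polyamine genes 6 rose and 2 fell. Srm, spermidine synthase, went from 37.0, 52.1 and 52.1 CPM to 261, 279 and 304 CPM, a 6.03-fold rise, and Odc1, the first enzyme of the pathway, rose 2.66-fold.

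Glycolysis and pentose phosphate genes split into 14 that rose and 12 that fell, with a median of 0.14 that turned to -0.02 with library totals alone. Hk2, a hexokinase gene, went from 31.3, 32.9 and 32.1 CPM to 153, 164 and 168 CPM (2.33 ± 0.07). The lactate exporter gene Slc16a1 and the lactate dehydrogenase gene Ldha rose by 2.06 and 1.54, while the other exporter gene Slc16a3 fell by 1.89. Of 39 oxidative phosphorylation genes 23 rose and 4 fell (median 0.16), led by cytochrome c, Cycs (1.30). With library totals 12 rose and 9 fell.

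Of 26 cholesterol synthesis genes 18 rose and 4 fell (median 0.96). Idi1, Lss and Sqle, 3 enzymes of the pathway, rose by 1.85, 1.71 and 1.68, and Abca1, which exports cholesterol, fell by 1.85. Amino acid transporter genes rose in 13 of 22 cases, led by Slc25a22 (1.98), Slc7a6 (1.58) and Slc7a1 (1.57), and Slc43a2 fell by 2.48. Chaperone and unfolded protein genes rose in 29 of 39 cases (median 0.78), led by the mitochondrial chaperone genes Hspd1 (1.88) and Hspa9 (1.69), while the stress kinase gene Eif2ak3 fell by 1.89. Proteasome genes rose in 32 of 37 cases (median 0.52), led by the activator subunit gene Psme3 (1.43). The 2 that fell, named after their values were seen, were the immunoproteasome subunit genes Psmb8 (-0.78) and Psmb10 (-0.69).

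Of 23 G1 regulators 7 rose and 10 fell, against 30.8% and 34.8% of all tested genes. The kinase gene Cdk6 went from 17.7, 17.7 and 23.2 CPM to 93.7, 111 and 108 CPM (2.43 ± 0.08), and cyclin D2, Ccnd2, from 140.5, 155 and 180.0 CPM to 881, 828 and 770.4 CPM (2.39 ± 0.11). The retinoblastoma family gene Rbl2 and the CDK inhibitor gene Cdkn2d fell by 1.80 and 1.76. DNA replication genes showed no common rise at 4 h: 5 of 32 rose, led by the sliding clamp gene Pcna (0.77), and 12 fell, led by the polymerase subunit gene Pold1 (-1.01). With no replicate block 6 fell.

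Mitosis genes were lower within each pair, by less than 2-fold. Of 24 tested genes 23 fell and 0 rose, with a median of -0.46 and pair medians of -0.35, -0.56 and -0.58. Aurkb, a mitotic kinase gene, went from 30.8, 20.1 and 15.8 CPM to 16.9, 10.1 and 7.29 CPM (-0.98 ± 0.10, adjusted p = 7.2e-08). Pair 1 was highest in both states, and for 24 of 24 genes the untreated and stimulated libraries overlapped. The calls therefore rest on the pairing: with no replicate block 1 of 24 fell, and Cenpe, Kif23 and Prc1, at -0.74, -0.72 and -0.64 in pairs, had adjusted p of 0.0998, 0.10 and 0.330. Erythroid markers moved the same way, with 6 of 7 falling and sums of 1407, 207 and 808 CPM in untreated libraries 1 to 3 against 1276, 143 and 507 CPM in stimulated ones. Their part in the mitosis result was not tested.

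Genes of quiescence fell, with 20 of 25 lower, 12 over 2-fold, and 3 higher (median -0.94). Klf2, a factor that keeps lymphocytes resting and homing, went from 419, 398 and 404 CPM to 108, 81.2 and 80.2 CPM (-2.19 ± 0.07, adjusted p = 3.31e-12). Ypel3, Ccng2 and Tsc22d3, which encodes the glucocorticoid-induced leucine zipper, fell by 2.12, 1.88 and 1.80. Of 35 migration, adhesion and RGS genes 22 fell, 15 over 2-fold, and 9 rose (median -0.58). The integrin gene Itgb7 went from 118, 131 and 124 CPM to 14.6, 19.2 and 9.37 CPM, and the sphingosine 1-phosphate receptor gene S1pr4 from 155, 179.9 and 185 CPM to 19.1, 23.2 and 20.5 CPM. S1pr3, another receptor of that lipid and a marker of marginal zone B cells, rose from 12.9, 22.7 and 23.1 CPM to 122, 142 and 154 CPM (2.86 ± 0.17, adjusted p = 1.4e-05). The marginal zone markers had no common direction: of 7 tested 3 rose and 3 fell (median 0.07), and Notch2 went from 953, 1153 and 1334 CPM to 345, 316 and 318 CPM.

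Survival genes moved in both directions. All 16 tested BCL2 family genes passed, 10 rising and 6 falling. The anti-apoptotic gene Bcl2l1, which encodes BCL-XL, went from 38.8, 32.7 and 49.2 CPM to 251, 258 and 267 CPM (2.71 ± 0.14, adjusted p = 5.83e-06). The pro-apoptotic gene Bmf fell from 353, 372 and 412 CPM to 92.4, 93.2 and 107 CPM (-1.96 ± 0.06). Bcl2a1b and Bcl2a1d, anti-apoptotic genes, rose by 2.29 and 2.32, but they are near-identical copies of one another, so the division of reads between them is uncertain.

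Surface genes of activation and costimulation rose in 20 of 31 cases and fell in 8 (median 0.58). Il2ra, which encodes the IL-2 receptor alpha chain, went from 46.2, 57.5 and 65.1 CPM to 415, 514 and 529 CPM (3.12 ± 0.08), and the early activation marker Cd69 from 74.2, 86.6 and 89.6 CPM to 698, 680.3 and 664 CPM (3.03 ± 0.07). The complement regulator gene Cd55 fell 10-fold, from 359, 356 and 421 CPM to 34.6, 36.4 and 42.7 CPM, and Icosl, the ligand of the T cell receptor ICOS, fell from 211, 197 and 213 CPM to 27.3, 25.5 and 17.9 CPM. Of 32 cytokine and chemokine genes 21 rose, 17 over 2-fold, and 5 fell (median 1.30, or 0.49 with limma on the deposited log2 values, where the same numbers passed). Ccl4 and Ccl3, chemokine genes that attract T cells, went from 7.31, 15.7 and 16.5 CPM to 144, 282 and 217 CPM and from 8.67, 14.8 and 17.6 CPM to 123, 202 and 166 CPM. Pair 1 was lowest for both in both states, unlike for Cxcl10. Ltb, lymphotoxin beta, fell 7.24-fold.

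Antigen presentation genes fell in 16 of 26 cases and rose in 9 (median -0.35). Those that fell most serve peptide loading on MHC class II: Ifi30, a lysosomal thiol reductase gene (-1.90), and H2-DMa, H2-DMb2 and H2-DMb1 (-1.50, -1.32 and -1.26). The latter pair are neighbouring copies whose reads may be shared. Lysosomal genes fell in 17 of 29 cases (median -0.25), among them Tfeb (-1.89), the transcription factor of lysosome genes. Toll-like receptor genes showed 9 of 22 in each direction, with Tlr7, a sensor of single-stranded RNA, going from 32.8, 44.0 and 37.0 CPM to 247, 259 and 236 CPM (2.71 ± 0.10) and Tlr4 falling by 1.53. With library totals alone 6 rose and 12 fell. All 8 GIMAP genes, GTPases of lymphocyte survival, fell (median -1.06), led by Gimap7 (-2.54).

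Reported Regnase-1 target transcripts rose in 12 of 19 cases and fell in none (median 1.07). With library totals alone 9 rose and 2 fell (median 0.92), and without deficient pair 2 the count that rose was 9. Beside Nfkbid and Nfkbiz, the most changed members included Tfrc and Rel. Tfrc, the transferrin receptor gene, went from 310.1, 177 and 222 CPM to 829, 731 and 739 CPM (1.73 ± 0.11), and Rel, an NF-kB subunit gene, from 293, 361 and 396 CPM to 744, 867 and 897 CPM (1.26 ± 0.05). In both states the pairs stood in the same order for Tfrc as for the erythroid marker sums (1407, 207 and 808 CPM untreated). The part of erythroid cells in the Tfrc level was not tested. Several scarce targets, looked up after their values were seen, rose from levels near the floor, such as Il6, from 0.554, 0.482 and 0.77 CPM to 5.18, 3.27 and 2.58 CPM. In control cells 14 of the 19 rose and 1 fell, and the median of the list was 1.13. The difference between the responses passed for 1 of 19, the transcription factor gene Stat3, named after its value was seen, at 0.31 ± 0.06 (adjusted p = 0.0385). Over all tested genes the difference passed for 0.501%.

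Other RNA decay genes moved in both directions. Of 32 genes of the Regnase family, the ZFP36 and Roquin proteins and mRNA decay 18 rose and 7 fell (median 0.20). With library totals alone 13 rose and 12 fell (median 0.05). Zc3h12c, a paralog of Zc3h12a, went from 18.9, 26.7 and 30.6 CPM to 116, 122 and 136 CPM (2.32 ± 0.18, adjusted p = 7.67e-05), and Dis3, a nuclease of the RNA exosome, from 41.2, 51.3 and 53.8 CPM to 146, 163 and 171 CPM (1.72 ± 0.06). Zfp36l2, which destabilizes AU-rich mRNAs, fell by 1.20. Arid5a, which protects some Regnase-1 targets from decay, fell by 0.94.

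Most genes moved the same way in deficient and control cells. The libraries of the 2 comparisons are separate, and across 13574 genes, which are not independent replicates, the log2 fold changes correlated with r = 0.896. Of 1373 genes that rose over 2-fold in deficient cells 1288 also rose in control cells at an adjusted p under 0.05, and of 1736 that fell 1500 also fell there. The shares of all tested genes that rose or fell in control cells are not given here. In deficient cells they were 30.8% and 34.8%. The difference between the responses passed for 68 of 13574 genes (0.501%), of which 48 had the higher and 20 the lower response in deficient cells, and 1007 had an unadjusted p under 0.05. The median size of the 68 differences was 0.50 on the log2 scale, and 1 exceeded 2-fold. Control untreated library 4 has no stimulated partner and so carried no weight in the control response. The count was 1, Mapk3, with no replicate block, 26 without control pair 1, 28 without control pair 2 and 36 without deficient pair 2.

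**Figure D4:**
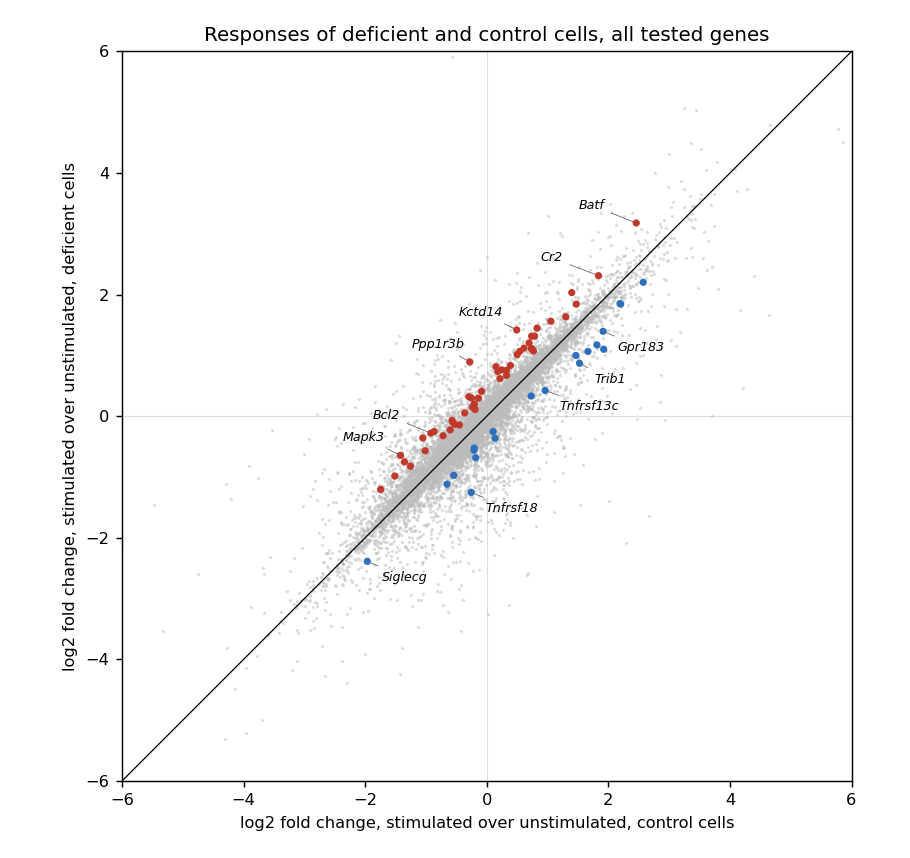
Log2 fold change after stimulation in deficient cells (vertical) against control cells (horizontal) for the tested genes, from the paired fit; the line marks equal responses, red and blue points are the 48 and 20 genes whose response was higher and lower in deficient cells at an adjusted p under 0.05, and 6 genes lie outside the axes. Most genes follow the line, and the coloured points sit near it.

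By the signs of the fitted changes, both genotypes went up and the deficient cells by more in 24 of the 68 genes, and both went down and the deficient cells by less in 15. Both went up and the deficient cells by less in 11, and both went down and the deficient cells by more in 7. In the other 11 the signs were opposite. Genes that the deficient cells raised more included Batf, whose control libraries went from 8.74 to 9.58 CPM to 46.4 to 54.6 CPM, so that its response was 3.18 against 2.46 (difference 0.72 ± 0.11, adjusted p = 0.00285). Plk2, a stress-responsive kinase gene, rose by 1.45 against 0.83 (0.62 ± 0.08, adjusted p = 0.00114), and Mllt6, a chromatin factor gene, by 0.81 against 0.15 (0.67 ± 0.08, adjusted p = 0.000656). Kctd14 rose by 1.42 against 0.49, and Cr2 by 2.31 against 1.84 (0.47 ± 0.07, adjusted p = 0.00318). Ppp1r3b, a glycogen-targeting phosphatase subunit gene, rose by 0.89 in deficient cells and stood at -0.28 in control cells, the largest difference of the 68 (1.17 ± 0.21, adjusted p = 0.0141), at levels of 3.4 to 19.2 CPM.

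Several genes fell less in deficient cells. Mapk3, which encodes the kinase ERK1, went from 65.7, 64.4 and 74.8 CPM to 44.0, 42.5 and 44.1 CPM in deficient cells and from 60.8 to 64.6 CPM to 22.7 to 24.0 CPM in control cells (-0.65 against -1.42, difference 0.77 ± 0.09, adjusted p = 0.000656). The stimulated libraries of the genotypes did not overlap. The anti-apoptotic gene Bcl2 went from 36.8, 43.3 and 43.5 CPM to 33.3, 38.4 and 30.1 CPM, and in control libraries from 26.9 to 33.0 CPM to 12.7 to 16.4 CPM (-0.28 against -0.92, difference 0.64 ± 0.13, adjusted p = 0.0314). Fam107b was at -0.25 against -0.87 (0.62 ± 0.08, adjusted p = 0.00122).

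Lower responses were led by Tnfrsf18, which encodes the costimulatory receptor GITR. It went from 7.78, 8.34 and 7.79 CPM to 3.52, 3.84 and 2.66 CPM in deficient cells (-1.26), and its change in control cells was -0.26 (adjusted p = 0.119), a difference of -0.997 ± 0.21 (adjusted p = 0.0385). The adhesion molecule gene Icam1 rose from 55.4, 65.9 and 63.1 CPM to 123, 140.4 and 122 CPM, against 245 CPM in each stimulated control library (1.06 against 1.66, difference -0.60 ± 0.08, adjusted p = 0.00114). Tnfrsf13c, which encodes the BAFF receptor, rose by 0.42 against 0.96 (-0.54 ± 0.07, adjusted p = 0.000656). Gpr183, which encodes the receptor EBI2 that guides activated B cells, rose by 1.40 against 1.91 (-0.52 ± 0.08, adjusted p = 0.00317). Trib1 and Il1r2, a decoy receptor gene for interleukin-1, rose by 0.87 against 1.52 and 1.17 against 1.81. Siglecg fell by 2.39 against 1.97, Lfng, a glycosyltransferase gene that modifies Notch, by 0.69 against 0.18, and Abr was at -0.36 against 0.13. Some of these calls did not hold when a pair was left out: without control pair 1 the adjusted p was 0.248 for Tnfrsf18, 0.290 for Il1r2, 0.252 for Abr, 0.217 for Bcl2, 0.0984 for Lfng, 0.0903 for Kctd14 and 0.0614 for Ppp1r3b, and leaving out control pair 2 ended all 7 of these calls as well. The differences without control pair 1 were -0.92 for Tnfrsf18, -0.52 for Il1r2, -0.37 for Abr, 0.64 for Bcl2, -0.48 for Lfng, 0.97 for Kctd14 and 1.21 for Ppp1r3b. The Il1r2 call was also lost with DESeq2's size factors (adjusted p = 0.0771), upper-quartile factors (0.0683), library totals (0.0762), a 1 CPM filter (0.0530) and limma (0.0553).

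**Figure D5:**
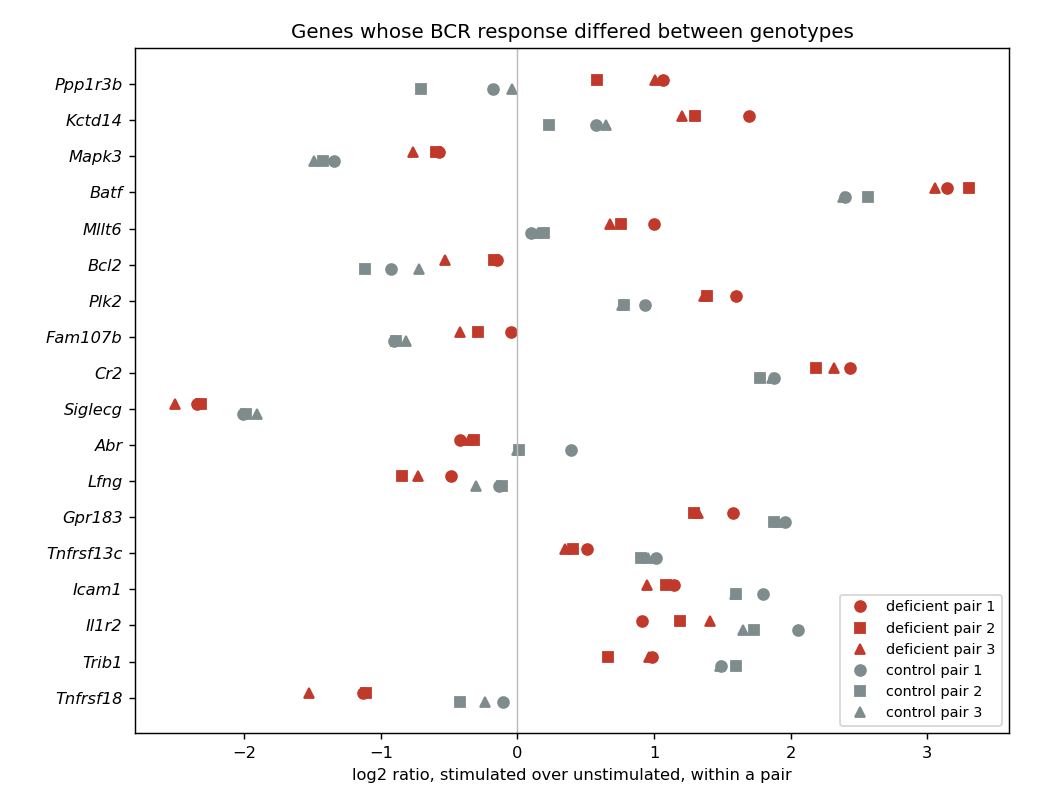
Log2 ratios of stimulated over untreated CPM within each pair for the 18 named genes whose response differed between genotypes, ordered by the size of the difference; red symbols are the 3 deficient pairs and grey symbols the 3 control pairs. The genes were chosen for a called difference between these same pairs, so the separation of red from grey is set by the choice.

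The difference by genotype passed for 0 of 46 ribosome biogenesis genes, 0 of 32 nucleotide and one-carbon genes, 0 of 26 cholesterol genes, 0 of 24 mitosis genes and 0 of 30 immediate early genes (edgeR's quasi-likelihood test). Over all tested genes it passed for 0.501%, so 0 in lists of this size says little about their members. The difference passed for 1 gene each in the BCL2 family, migration, antigen presentation and Regnase-1 target lists. It passed for 4 of 31 activation surface genes, 3 of 44 B cell factor genes and 3 of 34 proximal BCR genes. Among NF-kB genes it passed for 2 of 26, and among genes that damp BCR signals for 2 of 34. The last were Siglecg and Fcgr2b, the inhibitory Fc receptor gene, which was named after its value was seen and fell by 1.21 against 1.75 (difference 0.54 ± 0.09, adjusted p = 0.00554). Some list medians were close in deficient and control cells: 1.77 and 1.77 for ribosome biogenesis, and 1.11 and 1.12 for nucleotide metabolism. Others lay further apart: -0.94 and -1.13 for quiescence, 0.96 and 0.79 for cholesterol, and 0.10 and -0.007 for ribosomal protein genes. Of 74 ribosomal protein genes 35 rose and 6 fell in deficient cells, against 17 and 18 in control cells. A difference that did not pass does not show that the genotypes act alike.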

How the data were processed

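RNA-seq counts per gene symbol were used for the 13 libraries, from tables of raw read counts and of log2 values deposited by the authors. TopHat, HTSeq, DESeq2 and mm10 are named in the submitters' processing notes, without versions or roles. The annotation, the strand setting, the treatment of multiply mapped reads and the transformation behind the deposited log2 values are not given in the sources used here.

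Of 23337 symbols 1 lacked a value and was left out, and 13574 passed edgeR's filterByExpr with a minimum count of 10. Counts were scaled by TMM and fitted in edgeR 4.0.16 (R 4.3.3) with the quasi-likelihood test over all 13 libraries, with a term for each pair and stimulation terms for each genotype. This left 4 residual degrees of freedom. The call threshold was 0.05 on p-values adjusted by Benjamini-Hochberg. The SE is the log2 fold change divided by the square root of F, and log2 ratios within pairs used a prior count of 2. Library totals were 21407724 to 33244755 counts in the deficient group. Over 9658 genes the deviations of same-numbered libraries from their group means correlated with r of 0.83, 0.76 and 0.62 in deficient and 0.73, 0.49 and 0.57 in control pairs, so the numbers were taken as pairs, as the labels' numbering has them. No replicate libraries agreed within sampling noise (chi-square per gene 8.04 to 35.6).

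Alternatives were other scalings and filters, no block, DESeq2 1.42.0, limma 3.58.1 on the deposited log2 values, a test against a 1.5-fold minimum and leaving out each replicate. The code was tested on simulated data. Named genes were Zc3h12a, the 12 largest rises and 12 largest falls, up to 4 members per list with the largest changes, and the 8 largest differences of each sign. All but Zc3h12a were called, averaging 2 or more in log2 CPM, and for the rises and falls with the same sign in all 3 pairs, without antigen receptor segments or predicted genes. The comparison, its 34 pathway lists and its 14 marker lists were chosen with earlier results of these data known. Gene coordinates are from GENCODE vM21 (mm10), which held 20929 of the symbols (89.7%), and promoters from RefSeq (GRCm38.p6).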

Additional observations from a re-analysis of the deposited data

Results flagged for a closer look

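In 18 named genes the response differed between deficient and control cells by the test of the difference itself (edgeR's quasi-likelihood test, adjusted p under 0.05). The values below are deficient minus control log2 responses. Higher in deficient cells were Ppp1r3b (1.17), Kctd14 (0.93), Mapk3 (0.77), Batf (0.72), Mllt6 (0.67), Bcl2 (0.64), Fam107b (0.62), Plk2 (0.62) and Cr2 (0.47). Lower were Tnfrsf18 (-0.997), Trib1 (-0.66), Il1r2 (-0.64), Icam1 (-0.60), Tnfrsf13c (-0.54), Gpr183 (-0.52), Lfng (-0.50), Abr (-0.50) and Siglecg (-0.42). Among the 4 untreated control libraries, the only group of more than 3, none stood far from the others in the 17 genes examined, Zc3h12a and the 8 largest differences of each sign. Groups of 3 were not examined in this way, and deficient pair 1 stood apart on the second principal component.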

How the results depend on the processing

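Genes called in the deficient response numbered 8900, with 7939 to 8389 (3910 to 4153 higher, 4029 to 4236 lower) when a deficient replicate was left out. Against a 1.5-fold minimum 3901 were called (1881 higher, 2020 lower). The 68 differences between genotypes became 118 with DESeq2's size factors, 211 without a filter, 137 with DESeq2's own test, 113 with limma on the deposited log2 values and 0 against the 1.5-fold minimum, and 26 to 92 when a replicate was left out. Without the pairing (no replicate block) 1 was called, Mapk3, and the response count was 7856. Cenpe, Kif23 and Prc1 also lost their calls with no replicate block, at adjusted p of 0.0998, 0.10 and 0.330. Zc3h12a turned from 0.04 to -0.11 (adjusted p = 0.0369) with library totals. Of 148 named response genes 7 lost their call in at least 1 setting and that 1 reversed. The cause was not tested. Depth limits genes near 3 counts, 0.0831 to 0.136 CPM.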
